A study of Homo sapiens with 36 samples.

Results

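The genes described here are 38 androgen-induced genes of the prostate, chosen by name as known targets of androgen without the kallikreins and the fastest targets, and followed by the hour at which an androgen receptor inhibitor first lowered them. They were chosen with earlier results of these data known. Shares of members called, set beside those of all genes, are therefore descriptions and not tests of the set. All 38 were found among the 60676 genes of the count table, and all 38 passed the filter on low counts that left 15744 genes for testing. That filter asked for about 1.04 CPM in 3 libraries, and ADAM7 passed it only through olaparib at 72 h, so comparisons of ADAM7 with that group are descriptions and not tests. The counts came from LNCaP cells, an established prostate cancer line that depends on androgen receptor signalling, grown in RPMI 1640 with 10% FBS. Cells were given DMSO, the vehicle, or 3 µM enzalutamide, or 3 µM olaparib, or both drugs at 3 µM each, which is called the combination. RNA was taken after 8, 24 or 72 h, with 3 cultures in each of the 12 groups and 36 libraries in all. All cultures came from the same cell line, so the p-values measure the spread between cultures of 1 line.

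The androgen receptor is a transcription factor that enters the nucleus when it binds androgen and activates genes through response elements in DNA, often with forkhead factors. Enzalutamide competes with androgen for the receptor and hinders its entry into the nucleus and its binding to DNA, and olaparib inhibits PARP enzymes, which act in DNA repair. Androgen-induced genes in the prostate epithelium serve secretion, polyol and lipid metabolism, ion transport, vesicle traffic and kinase signalling, so the members are taken here by what their products do.

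Depth ran from 4.15 to 15.4 M counts (median 9.63 M), and levels are given as CPM, counts scaled to library size by TMM. All 9 luminal prostate markers listed were present, and of 13 markers of basal, stromal, endothelial, blood and neuroendocrine cells KRT5, TP63 and CDH5 were among those with no count. The summed level of the 13 was 17.4 to 33.3 CPM in any library, most of it COL1A1 at 15.1 to 28.3 CPM as a group mean. DMSO at 72 h replicate 1 stood apart: mitochondrial genes took 1.54% of its 4.66 M counts, where the other DMSO cultures at 72 h had 5.56% and 3.97%. Its mean correlation with the other cultures of its group, 0.978 over all genes tested, was the lowest, followed by that of olaparib at 8 h replicate 1 at 0.982, the library of least depth. Calls of members lost without the DMSO library are named beside the results. In this bulk RNA, fewer cells of a kind and less RNA per cell cannot be told apart.

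Before treatment effects, the members differed widely in level. Per kilobase of exon, the mean level over the 9 DMSO cultures was highest for ABHD2, a lipid hydrolase gene, at 163 ± 10.4 CPM per kb (SD). DBI, which encodes the acyl-CoA binding protein, followed at 120 ± 8.49 CPM per kb, and SORD, the sorbitol dehydrogenase gene, at 108 ± 9.49 CPM per kb. Their ranges of 1 SD touched between DBI and SORD, while ABHD2 stood above both. At the low end stood SPOCK1 at 0.162 ± 0.0482, AKAP12 at 0.145 ± 0.0982, HERC3 at 0.136 ± 0.0468 and ADAM7 at 0.115 ± 0.0696 CPM per kb, whose spreads overlapped. The table held a second gene ID with the symbol HERC3, which had 0 counts and shares 69.5% of the exon bases of the ID used here, so the HERC3 level is uncertain. Between DMSO cultures of 8 and 24 h KCNN2 was the member called, against 0.648% of all genes, with 7 members at unadjusted p below 0.05, 1 called by DESeq2 and 4 with no filter. The groups did not overlap for 14 of 38 members, against 15.8% of all genes. Between 24 and 72 h no member was called, against 0.146% of all genes, with 8 at unadjusted p below 0.05, 4 called by DESeq2 and 2 with no filter, and 5 of 38 did not overlap, against 14.2%.

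What the receptor inhibitor did to these genes was asked by enzalutamide against DMSO at each hour. Most members fell, and more were called lower at 24 and 72 h than at 8 h. The counts were 22 of 38 at 8 h, 30 at 24 h and 29 at 72 h. Here called means an edgeR adjusted p below 0.05 over all genes tested. Among all genes 1.94%, 10.6% and 14.6% were called lower at these hours, a description since the members were chosen with earlier results of these data known. No member was called higher at 8 h, 1 was at 24 h and 2 were at 72 h, against 1.09%, 8.21% and 12.7% of all genes. The median log2 fold change of the 38 members was -0.48 at 8 h, -0.68 at 24 h and -0.93 at 72 h, beside -0.001, 0.01 and -0.01 over all genes tested. Groups did not overlap for 31, 33 and 32 of 38 members at the 3 hours, against 16.6%, 36.3% and 35.4% of all genes.

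By the hour of the first call, 22 members were lower from 8 h, 10 from 24 h and 2 from 72 h, and 4 were never called lower. The class is set by a threshold, and 16 of the 22 calls at 8 h held in every setting that covered the gene, against 8 of 10 at 24 h and 2 of 2 at 72 h. Some settings did not cover every called gene, and such a gene was not counted as lost. The 8 h calls of ELK4, INPP4B, IQGAP2, MAK, PDLIM5 and SLC26A2 and the 24 h calls of RAB27A and RAB4A were lost when some library was left out. Of the members, 19 were lower at all 3 hours. For these the log2 fold change at 8 h was 21.6% to 163.2% of that at 72 h, with a median of 54.8%. With the combination against DMSO at 8 h, 3 of the 10 members lower from 24 h were already called lower, against 3.86% of all genes. These were ADAM7, CREB3L4 and PLPP1, and each of these calls was lost in some settings.

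**Figure D1:**
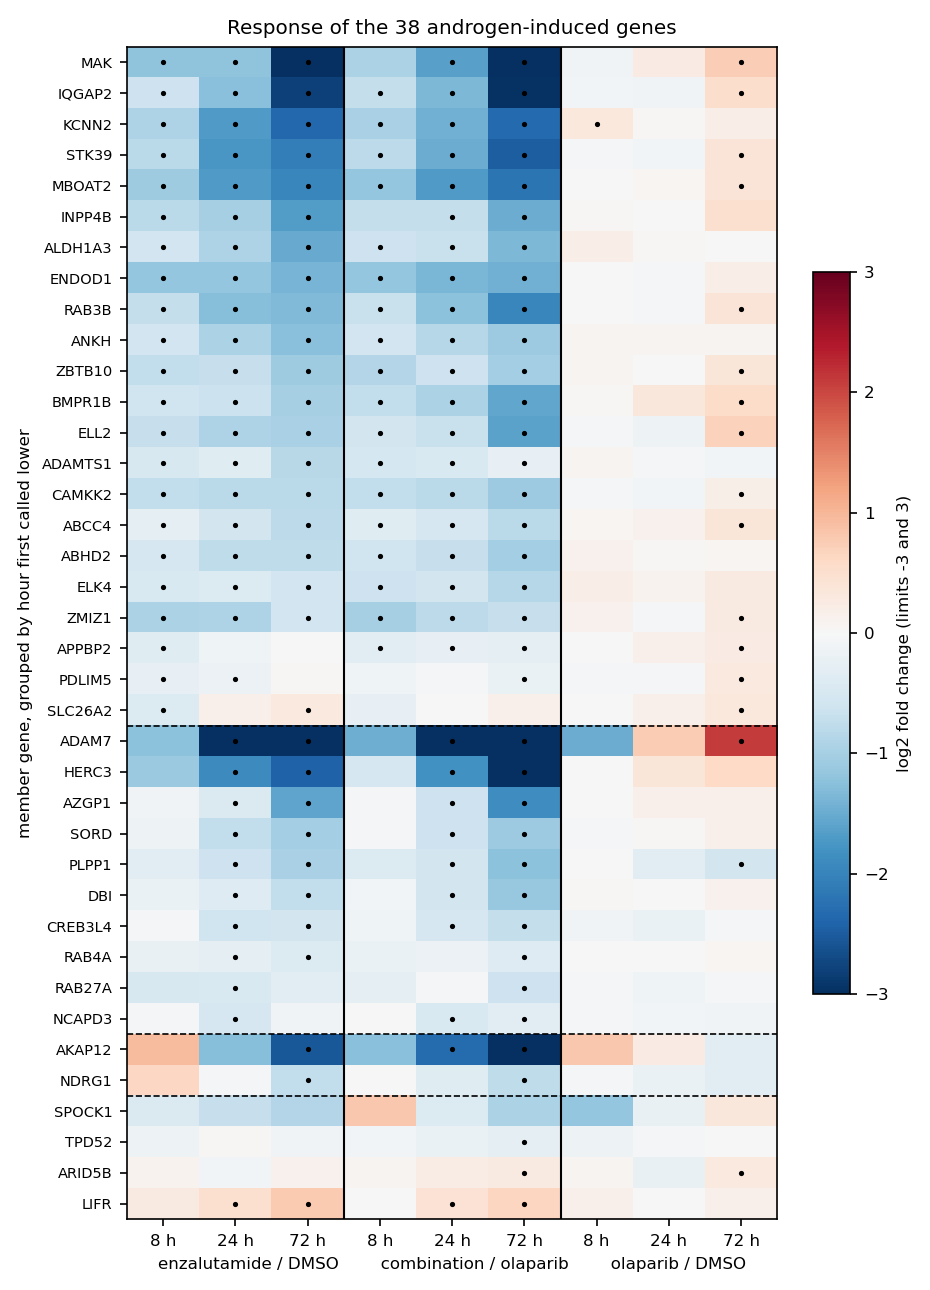
Log2 fold change of each of the 38 members (rows, grouped by the hour first called lower with enzalutamide) at 8, 24 and 72 h for enzalutamide against DMSO, combination against olaparib and olaparib against DMSO (columns); colour is cut at -3 and 3, and a dot marks an edgeR adjusted p below 0.05. In the left block the first 22 rows are blue at 8 h. By 72 h APPBP2 and PDLIM5 are near white there and SLC26A2 is pale red. Most of the next 10 rows darken from 24 h, while RAB27A and NCAPD3 are paler at 72 h than at 24 h. The middle block is blue in most rows. The right block is mostly pale until 72 h, where 16 members are called higher. Its values run from -1.5 to 0.81 at 8 h and from -0.32 to 0.75 at 24 h.

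Among the genes lower from 8 h, the 4 with the largest change at 72 h were MAK, IQGAP2, KCNN2 and STK39, and each lay further below DMSO at 72 h than at 8 h. STK39 encodes a kinase that regulates cation-chloride cotransport (ENSG00000198648, chromosome 2, 167954020 to 168247595, GRCh38). Its 8 h levels were 101, 98.7 and 84.3 CPM in DMSO and 53.2, 53.5 and 56.4 CPM with enzalutamide. At 24 h they were 87.5, 87.5 and 92.2 against 28.2, 27 and 25.2 CPM. At 72 h they were 84.4, 95.7 and 93.6 against 21.7, 22.5 and 20.9 CPM. The DMSO cultures held their level and each later hour of drug was lower, without overlap at any hour. The log2 fold changes were -0.81 ± 0.08 (SE, 3 cultures each, edgeR adjusted p 1.6e-09), -1.74 ± 0.08 (5.7e-19) and -2.08 ± 0.09 (1.0e-20), and the step from 8 to 24 h was itself called (-0.93 ± 0.11, adjusted p 1.2e-06).

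KCNN2, which encodes a calcium-activated potassium channel of small conductance (chromosome 5, 114055926 to 114496500), stood at 126, 147 and 145 CPM in DMSO at 8 h and at 81.1, 77.7 and 61.1 CPM with enzalutamide. At 72 h the levels were 147, 161 and 161 CPM in DMSO and 34.7, 32.2 and 25.9 CPM with enzalutamide. The log2 fold changes at the 3 hours were -0.93 ± 0.09, -1.69 ± 0.09 and -2.36 ± 0.10 (3 cultures each, adjusted p 5.5e-10, 3.9e-18 and 2.7e-21), and both steps were called (-0.77 ± 0.12 and -0.66 ± 0.13). KCNN2 also rose in DMSO between 8 and 24 h, from 126, 147 and 145 to 197, 172 and 195 CPM (0.44 ± 0.08, adjusted p 0.0033), a call lost without DMSO at 8 h replicate 1 (0.36, adjusted p 0.14).

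IQGAP2 and MAK had the largest called changes of effect from 24 to 72 h (-1.54 ± 0.31 and -1.94 ± 0.52, adjusted p 9.8e-04 and 0.012). IQGAP2, a scaffold gene of the actin cytoskeleton (chromosome 5, 76403285 to 76708132), stood at 11.8, 11.9 and 8.77 CPM in DMSO and 7.03, 7 and 7.69 CPM with enzalutamide at 8 h. At 24 h the levels were 11.8, 9.33 and 10.4 against 4.80, 5.43 and 2.96 CPM, and at 72 h 8.26, 10.6 and 11.3 against 1.61, 1.96 and 1.03 CPM. Groups did not overlap at any hour, and the log2 fold change went from -0.61 ± 0.17 to -1.26 ± 0.18 and -2.81 ± 0.24 (3 cultures each, adjusted p 0.041, 9.3e-07 and 5.3e-12). The 8 h call was lost with each of 5 libraries left out. MAK, a serine/threonine kinase gene of low level, stood at 3.60, 2.64 and 2.65 CPM in DMSO and 1.33, 0.840 and 1.58 CPM with enzalutamide at 8 h. At 72 h it stood at 1.96, 3.33 and 2.5 against 0.503, 0.280 and 0.159 CPM, with 9 counts over the 3 drug-treated libraries. MAK shares 2.27% of its exon bases with TMEM14B on the other strand, whose mean count of 324 is far above the 19.2 of MAK, so its level is uncertain. Its change was -1.21 ± 0.28 at 8 h, -1.20 ± 0.28 at 24 h and -3.14 ± 0.39 at 72 h (adjusted p 0.0069, 0.0015 and 5.8e-08) with no step between the first hours, and the later step had an adjusted p of 0.10 without enzalutamide at 72 h replicate 3.

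Promoter windows of RefSeq on GRCh38.p14, from 250 bases before to 50 after each gene's start, were matched to 28 of the 38 members by symbol. A palindromic androgen response element, AGAACA and TGTTCT with any 3 bases between them, was in none of these windows and in 0.00285% of all 35116 windows, both strands counted. Its half-site TGTTCT, on either strand and also part of the palindrome, was in the windows of 4 of 28 members (14.3%), IQGAP2, LIFR, RAB27A and STK39, and in 14.8% of all windows, so the members held it about as often as other genes. The forkhead letters TGTTTAC, on either strand, were in 2 of 28 (7.14%), ARID5B and LIFR, and in 3.42% of all windows. The windows of STK39, which fell from 8 h, and of LIFR, which rose from 24 h, are printed 5′ to 3′ along the gene because both hold the half-site and the genes moved in opposite directions. Capitals mark the half-site, which reads AGAACA along both genes and begins -112 bases from the start in STK39 and -8 bases from it in LIFR. The STK39 window, chr2:168247546-168247845 on the minus strand, spans the start of the counted gene. The LIFR window, chr5:38557418-38557717 on the minus strand, lies inside the counted gene, which runs from 38474668 to 38608354, as the windows of IQGAP2 and RAB27A lie inside theirs.
STK39: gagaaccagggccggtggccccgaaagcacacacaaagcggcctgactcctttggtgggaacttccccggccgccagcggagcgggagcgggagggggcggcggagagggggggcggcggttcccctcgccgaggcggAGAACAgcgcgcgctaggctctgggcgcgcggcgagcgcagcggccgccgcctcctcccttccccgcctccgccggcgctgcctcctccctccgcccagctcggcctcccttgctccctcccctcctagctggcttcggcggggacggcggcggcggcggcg
LIFR: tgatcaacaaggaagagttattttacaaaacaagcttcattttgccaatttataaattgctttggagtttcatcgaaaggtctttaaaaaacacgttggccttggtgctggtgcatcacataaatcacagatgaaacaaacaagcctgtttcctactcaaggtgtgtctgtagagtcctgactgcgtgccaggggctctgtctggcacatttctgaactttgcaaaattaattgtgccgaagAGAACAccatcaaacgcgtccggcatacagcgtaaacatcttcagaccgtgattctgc

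Other members lower from 8 h were near their 72 h change by 8 h, among them 2 chosen after their values were seen. ENDOD1, which encodes a protein with an endonuclease domain, stood at 377, 346 and 299 CPM in DMSO and 135, 155 and 167 CPM with enzalutamide at 8 h. At 72 h the levels were 305, 335 and 320 against 120, 128 and 120 CPM. The log2 fold changes of -1.16 ± 0.07, -1.17 ± 0.07 and -1.39 ± 0.07 (3 cultures each, adjusted p 2.6e-15, 4.2e-16 and 2.8e-18) differed between hours by less than was called (adjusted p 0.99 from 8 to 24 h and 0.17 from 24 to 72 h). CAMKK2, the gene of a calcium-dependent kinase upstream of AMPK, stood at 185, 183 and 168 CPM in DMSO and 109, 107 and 106 CPM with enzalutamide at 8 h, and at 191, 191 and 184 against 105, 109 and 109 CPM at 72 h. Its change was -0.74, -0.80 and -0.81, each ± 0.06. The 9 enzalutamide-treated cultures of CAMKK2 thus lay between 105 and 112 CPM whatever the hour.

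ZMIZ1, which encodes a coactivator of the androgen receptor, was a member lower from 8 h whose fall shrank after 24 h, also chosen after its values were seen. It stood at 420, 398 and 349 CPM in DMSO and 216, 199 and 196 CPM with enzalutamide at 8 h, and at 399, 438 and 429 against 217, 234 and 215 CPM at 24 h. At 72 h the levels were 299, 387 and 374 against 231, 238 and 247 CPM. The log2 fold change was -0.94 ± 0.07, -0.93 ± 0.07 and -0.57 ± 0.07 (3 cultures each, adjusted p 8.2e-12, 1.9e-12 and 1.3e-07), and the later step of 0.35 ± 0.10 was called (adjusted p 0.026). DMSO at 72 h replicate 1 was the lowest DMSO culture for this gene. Without it the 72 h change was -0.68 and the later step 0.25, no longer called (adjusted p 0.086), as also without 5 other libraries.

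**Figure D2:**
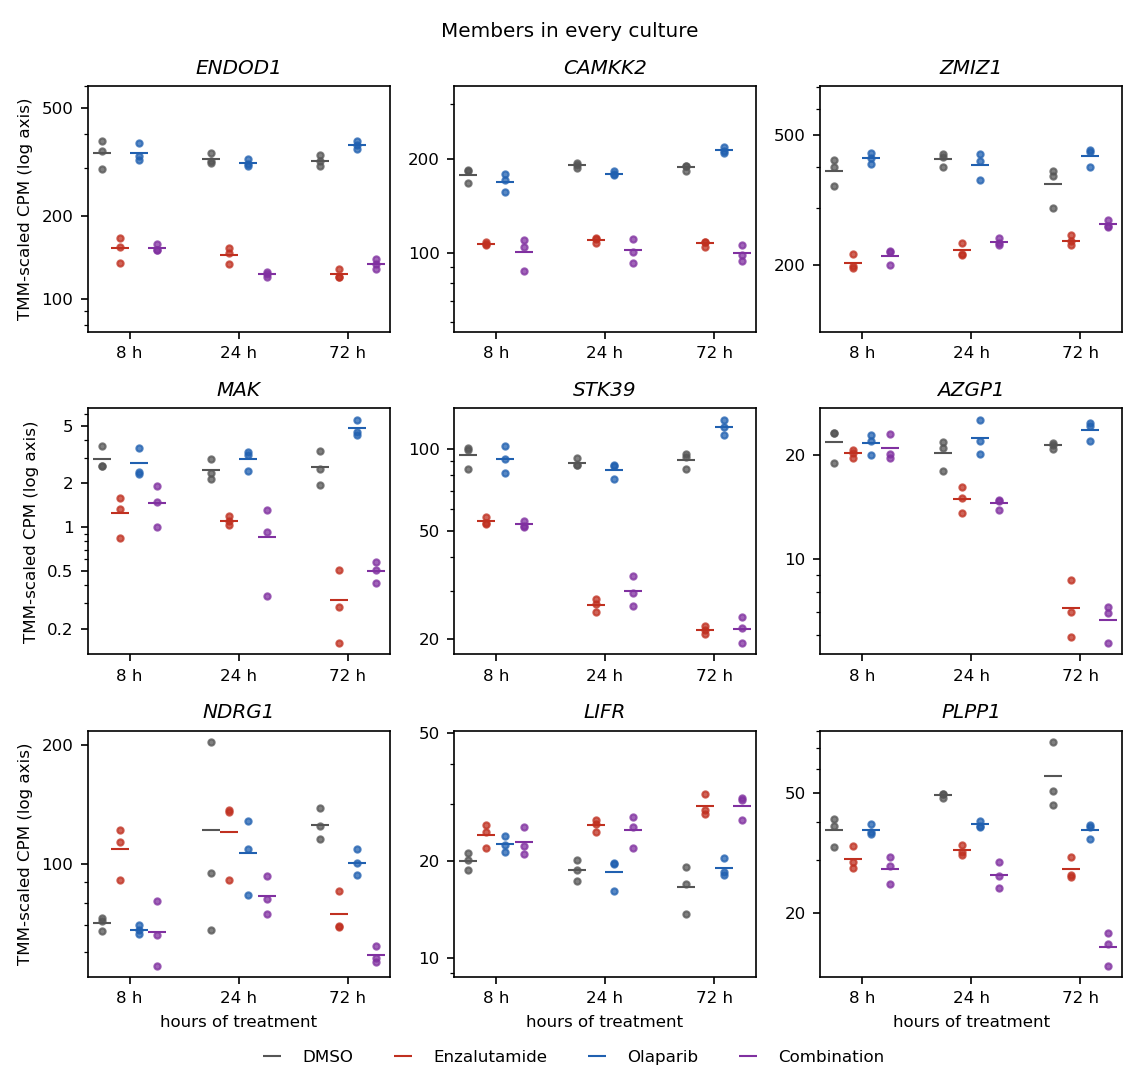
TMM-scaled CPM (log axis) of 9 members in every culture (points) with the group mean (dash) by hours of treatment and by drug. ENDOD1 and CAMKK2 are at their lower level from 8 h, and STK39 and AZGP1 keep falling to 72 h with enzalutamide and with the combination. With enzalutamide MAK lies about as far below DMSO at 24 h as at 8 h, and further below at 72 h. LIFR rises, NDRG1 spreads from 68.3 to 204 CPM in DMSO at 24 h, and PLPP1 is lowest with the combination at 72 h.

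The remaining members lower from 8 h fell by graded amounts. MBOAT2, a lysophospholipid acyltransferase gene, changed by -1.07 ± 0.07, -1.71 ± 0.07 and -1.95 ± 0.08 over the 3 hours, and its mean fell from 87.8 ± 2.55 CPM in DMSO to 22.8 ± 0.374 CPM (SD, 3 cultures) at 72 h. INPP4B, a phosphoinositide phosphatase gene, changed by -0.82 ± 0.21, -0.99 ± 0.21 and -1.68 ± 0.25. ALDH1A3, which encodes a dehydrogenase that makes retinoic acid and shares 32.2% of its exon bases with an antisense gene, changed by -0.57 ± 0.11, -0.93 ± 0.10 and -1.51 ± 0.11. Its DMSO cultures at 72 h read 75.7, 49.6 and 50.3 CPM, and without the first the 72 h change was -1.33. RAB3B, a small GTPase gene of secretory vesicles, changed by -0.71 ± 0.08, -1.27 ± 0.08 and -1.32 ± 0.09. ANKH, a gene of pyrophosphate export, changed by -0.57, -0.95 and -1.26, each ± 0.06, with both steps called (adjusted p 0.0092 and 0.022, the latter lost without any 1 of 5 libraries). ABCC4, an organic anion exporter gene, and ABHD2 changed by -0.79 ± 0.06 and -0.76 ± 0.06 at 72 h. ELL2, an elongation factor gene of RNA polymerase II, changed by -0.68 ± 0.11, -0.92 ± 0.11 and -0.97 ± 0.12, and the repressor gene ZBTB10 by -0.74 ± 0.09, -0.68 ± 0.09 and -1.06 ± 0.10. The ETS factor gene ELK4 changed by -0.45 ± 0.10, -0.42 ± 0.10 and -0.58 ± 0.11, the BMP receptor gene BMPR1B by -0.60 ± 0.14, -0.64 ± 0.13 and -0.99 ± 0.15, and the secreted protease gene ADAMTS1 by -0.49 ± 0.06, -0.36 ± 0.06 and -0.83 ± 0.06.

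Genes lower from 24 h held 3 of the 6 metabolic and lipid genes. SORD, which turns sorbitol into fructose (chromosome 15, 45023181 to 45077185), stood at 631, 602 and 619 CPM in DMSO and 569, 538 and 549 CPM with enzalutamide at 8 h. At 24 h it stood at 605, 646 and 629 against 382, 395 and 356 CPM, and at 72 h at 781, 668 and 707 against 368, 347 and 355 CPM. Its 8 h groups did not overlap, but the change of -0.16 ± 0.06 was not called (adjusted p 0.22), and it then fell by 0.73 ± 0.06 and 1.01 ± 0.06 (3 cultures each, adjusted p 1.0e-11 and 8.7e-16). AZGP1, a secreted glycoprotein gene (chromosome 7, 99966720 to 99976042), stood at 23.1, 19 and 23.2 CPM in DMSO and 20.3, 20.6 and 19.6 CPM with enzalutamide at 8 h, where the groups overlapped. At 24 h the levels were 17.9, 20.9 and 21.8 against 15, 16.1 and 13.6 CPM. At 72 h they were 21.7, 20.8 and 21.3 against 5.94, 8.67 and 7 CPM. The change of AZGP1 went from -0.10 ± 0.10 to -0.44 ± 0.10 and -1.58 ± 0.12 (adjusted p 0.78, 0.0019 and 6.6e-13), and the later step of -1.14 ± 0.16 was called (adjusted p 5.6e-06).

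ADAM7 and HERC3 were so low that an earlier fall with enzalutamide alone may not have been detectable at this depth. With the combination at 8 h ADAM7 had 2 counts against 20 in DMSO and was called lower, a call lost in 4 of 10 settings. ADAM7, an ADAM-family membrane protein gene best known from the epididymis, had 20 counts in DMSO and 8 with enzalutamide at 8 h, 16 and 1 at 24 h, and 10 and 0 at 72 h. Its 24 h levels were 0.197, 0.558 and 0.937 CPM in DMSO and 0.109, 0 and 0 CPM with enzalutamide, 21.3-fold lower with a 95% interval of 3.31 to 895 from counting error alone. At 72 h it was at least 3.89-fold lower if its 0 counts are set to a floor of 3 for the whole group, but DMSO replicate 1 also had no count, so the groups overlapped. HERC3, a ubiquitin ligase gene, stood at 0.791, 0.935 and 1.49 CPM in DMSO and 0.570, 0.140 and 0.556 CPM with enzalutamide at 8 h. At 24 h the levels were 0.691, 1.20 and 0.937 against 0.109, 0.323 and 0.257 CPM, and at 72 h 0.435, 1.29 and 0.790 against 0.302, 0 and 0.159 CPM. The groups did not overlap at any hour, while the change of -1.12 ± 0.46 at 8 h was not called (adjusted p 0.26) and those of -1.90 ± 0.47 and -2.43 ± 0.57 were (adjusted p 0.0033 and 0.0012; without DMSO at 72 h replicate 2 the latter was 0.054).

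Smaller falls from 24 h came in DBI, CREB3L4, PLPP1, RAB4A, RAB27A and NCAPD3. DBI changed by -0.38 ± 0.06 and -0.75 ± 0.06 at 24 and 72 h. CREB3L4, a transcription factor gene of the endoplasmic reticulum membrane, changed by -0.06 ± 0.08, -0.60 ± 0.08 and -0.54 ± 0.08, with the early step called (-0.54 ± 0.11, adjusted p 0.0021) and the later step not (0.06 ± 0.11, adjusted p 0.83). NCAPD3, a condensin subunit gene, was called lower at 24 h and at no other hour. Its levels were 119, 117 and 124 CPM in DMSO and 87.4, 78.0 and 88.2 CPM with enzalutamide at 24 h, and 122, 114 and 109 against 106, 103 and 110 CPM at 72 h. Its change of -0.51 ± 0.06 at 24 h (adjusted p 4.3e-08) was followed by -0.11 ± 0.06 at 72 h (adjusted p 0.21), and the difference of 0.40 ± 0.09 was called (adjusted p 0.0021). The GTPase gene RAB27A changed by -0.46 ± 0.16 at 24 h and was not called at 72 h (-0.33 ± 0.18, adjusted p 0.16), and the recycling GTPase gene RAB4A changed by -0.26 ± 0.08 and -0.41 ± 0.08. The levels of NCAPD3, PLPP1, RAB4A and RAB27A are uncertain, since each shares exon bases with other genes and exons were counted without strand. PLPP1 shares 24.9% of its exon bases with MTREX.

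The 2 members first called at 72 h, both listed with the scaffolds and adaptors, varied in the vehicle. NDRG1, a stress-responsive gene, stood at 71.7, 67.8 and 73.2 CPM in DMSO and 114, 91.3 and 122 CPM with enzalutamide at 8 h, without overlap but not called (0.63 ± 0.21, adjusted p 0.11). At 24 h the DMSO cultures read 68.3, 204 and 95 CPM and the enzalutamide cultures 136, 137 and 91.1 CPM. At 72 h the levels were 139, 116 and 125 against 69.9, 85.7 and 69.2 CPM (-0.75 ± 0.21, adjusted p 0.0062). AKAP12, an anchoring protein gene of protein kinase A, was highest in the same DMSO culture at 24 h, at 0.592, 2.95 and 1.07 CPM, against 0.655, 0.776 and 0.579 CPM with enzalutamide (-1.28 ± 0.48, adjusted p 0.055). At 72 h AKAP12 stood at 1.52, 2.20 and 1.45 CPM in DMSO and 0.302, 0.140 and 0.398 CPM with enzalutamide (-2.54 ± 0.61, adjusted p 0.0015). For both genes the DMSO cultures of 24 h overlapped those with enzalutamide, and those of 72 h lay above them.

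Not every member followed the set. LIFR, the receptor gene of leukemia inhibitory factor, rose: at 24 h it stood at 18.7, 17.3 and 20.2 CPM in DMSO and 24.7, 26.1 and 26.8 CPM with enzalutamide, and at 72 h at 13.7, 19.2 and 17 against 28.8, 32.4 and 28 CPM. Its change was 0.48 ± 0.10 and 0.78 ± 0.11 (3 cultures each, adjusted p 4.1e-04 and 2.8e-07), without overlap. SLC26A2, a sulfate transporter gene, moved both ways: it stood at 18.6, 20 and 19 against 13.7, 15.1 and 15 CPM at 8 h (-0.40 ± 0.11, adjusted p 0.039) and at 13.5, 16.1 and 15.4 against 19.9, 20.1 and 16.9 CPM at 72 h (0.30 ± 0.11, adjusted p 0.046). The change of its effect from 8 to 24 h was called (0.56 ± 0.15, adjusted p 0.037), but each of these 3 SLC26A2 calls was lost when certain libraries were left out, the 8 h call with any 1 of 6. Without DMSO at 72 h replicate 1 the 72 h change was 0.25 (adjusted p 0.14). SLC26A2 shares 2.87% of its exon bases with TIGD6 on the other strand, with mean counts of 171 and 177, so its level is uncertain. APPBP2, an adaptor gene for amyloid precursor protein, fell by 0.37 ± 0.07 at 8 h and was called at no later hour, and the LIM-domain scaffold gene PDLIM5 by 0.25 ± 0.07 and 0.18 ± 0.07 at 8 and 24 h, calls that were lost without any 1 of 5 and of 6 libraries.

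ARID5B, SPOCK1 and TPD52 were called at no hour with all libraries fitted. ARID5B, a chromatin regulator gene, stood at 26.1, 27.6 and 26.2 CPM in DMSO and 30.8, 29.6 and 27.9 CPM with enzalutamide at 72 h (0.14 ± 0.09, adjusted p 0.30). TPD52, a vesicle traffic gene, stood at 87.4, 122 and 135 against 112, 115 and 98.7 CPM (-0.10 ± 0.09, adjusted p 0.45). Without DMSO at 72 h replicate 1, its lowest DMSO culture, the change of TPD52 was -0.25 and was called (edgeR adjusted p 0.021). SPOCK1, a proteoglycan gene, stood at 0.652, 0.984 and 1.05 against 0.704, 0.280 and 0.477 CPM (-0.88 ± 0.51, adjusted p 0.21), with 24 and 15 counts in all, so that a fall of this size was not detectable at this depth. TPD52 and its neighbour ZBTB10 lie 254.4 kb apart on chromosome 8, and PDLIM5 and BMPR1B 89.7 kb apart on chromosome 4, and in each of these neighbour pairs only the latter gene was lower at all 3 hours, a difference that was not tested.

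By role, all 4 transporter and channel genes and 5 of 6 kinase, phosphatase and receptor genes were lower at 8 h, with median changes of -0.48 and -0.77, and LIFR was the exception. Of the 7 transcription and chromatin genes 4 were lower at 8 h and 6 at 24 h, of the 6 metabolic and lipid genes 3 and 6, of the 5 scaffold genes 3 and 2, of the 4 vesicle traffic genes 1 and 3, and of the 4 secreted or extracellular genes 1 and 3. Of all genes 1.94% were called lower at 8 h and 10.6% at 24 h. These role counts include the 8 h calls of SLC26A2, INPP4B, MAK, IQGAP2, PDLIM5 and ELK4, each lost in some settings. The 24 h calls of RAB4A, RAB27A and PDLIM5 were lost in some settings too. Differences between roles were not tested. From 8 to 24 h the enzalutamide effect itself changed in 9 members (8 further down, SLC26A2 up), against 2.74% of all genes, and from 24 to 72 h in 12 (10 further down, NCAPD3 and ZMIZ1 up), against 9.41%. The count of 12 was 7 without enzalutamide at 72 h replicate 3 and 6 when just the libraries compared were fitted.

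The same drug was also tested in the presence of olaparib, by the combination against olaparib, with libraries that the comparison of enzalutamide with DMSO did not use. There 18 members were lower at 8 h, 29 at 24 h and 34 at 72 h, against 1.43%, 7.7% and 18% of all genes. None was higher at 8 h, LIFR was at 24 h, and LIFR and ARID5B were at 72 h, against 0.762%, 5.9% and 16.3% of all genes. The median change was -0.53, -0.63 and -1.09. Of the members lower with enzalutamide alone, 18 of 22, 27 of 30 and 29 of 29 were lower here too. The 34 and the 29 at 72 h include ADAM7, with 0 counts against 54 with olaparib, a description and not a test. The onset class was the same for 18 of 22 members from 8 h, 8 of 10 from 24 h and 1 of 2 from 72 h. TPD52 was lower at 72 h with olaparib present (-0.28 ± 0.10, adjusted p 0.022, lost without any 1 of 3 libraries). With enzalutamide alone TPD52 was not called in the full fit, but was called lower without DMSO at 72 h replicate 1 (-0.25). SLC26A2 was not called at any hour with olaparib present. Across the 38 members, ADAM7 included, the log2 fold changes of both comparisons had a Pearson r of 0.527 at 8 h, 0.946 at 24 h and 0.966 at 72 h (Spearman 0.772, 0.936 and 0.943). At 8 h the 32 members with a mean of at least 5 CPM gave a Pearson r of 0.924. These describe 38 genes measured in the same cultures of 1 line and are not tests.

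**Figure D3:**
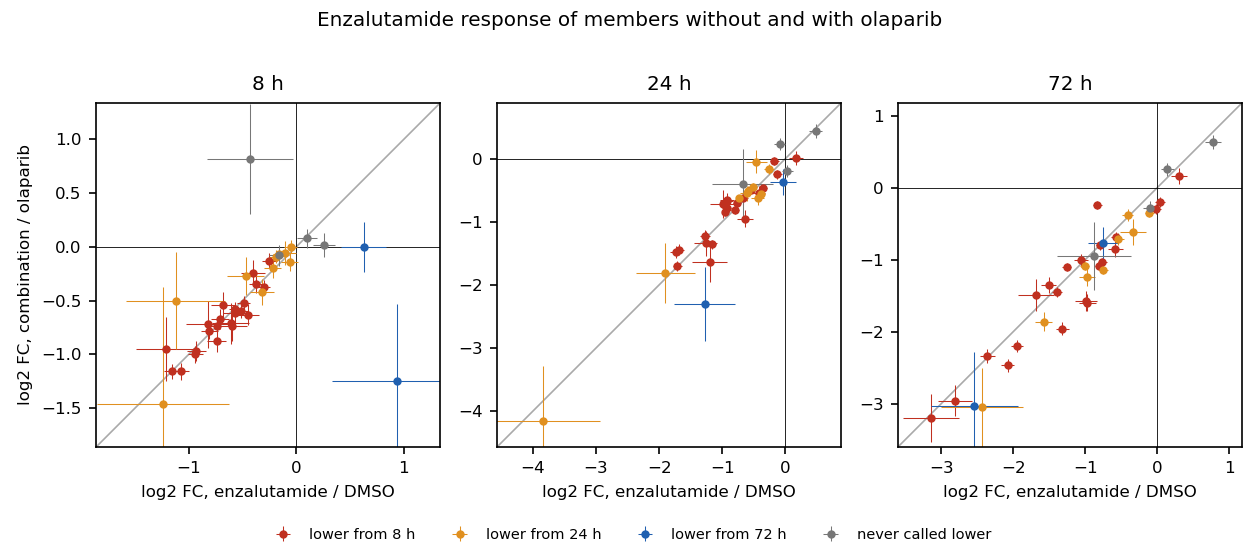
Log2 fold change of members for combination against olaparib (y axis) and enzalutamide against DMSO (x axis) at 8, 24 and 72 h, with standard errors, coloured by the hour first called lower with enzalutamide; the line marks equal change, and ADAM7 is not drawn at 72 h, where treated groups had no count. Points lie along the line, and those far from it at 8 h are low-count genes with wide bars or NDRG1, with changes of 0.63 and 0.00. At 72 h more points lie below the line than above it, with a median difference of -0.17 over the 38 members. RAB3B and ELL2 are among those below, while ADAMTS1 lies above, with -0.83 and -0.24.

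Olaparib alone gave few calls among these genes at 8 and 24 h, which is not a test of no change. Groups did not overlap for 6 of 38 members at 8 h and 9 at 24 h, against 17.3% and 17.2% of all genes. KCNN2 was the member called at 8 h, at 168, 169 and 183 CPM against 126, 147 and 145 CPM (0.32 ± 0.08, 3 cultures each, adjusted p 0.044), against 0.553% of all genes called higher and 0.769% lower, and that call was lost without any 1 of 5 libraries, among them olaparib at 8 h replicate 1 (0.34, adjusted p 0.069). No member was called at 24 h (6 at unadjusted p below 0.05, none by DESeq2), against 1.12% of all genes, and the median change was 0.00 at 8 h and -0.01 at 24 h. At 72 h 16 members were higher and 1 was lower, against 8.22% and 9.69% of all genes, with a median of 0.22 beside -0.012 over all genes. Of the 16, 14 were among the 22 genes lower from 8 h with enzalutamide. This comparison depends on its libraries: 11 members were called without DMSO at 72 h replicate 1, when 10 of the 17 were kept and IQGAP2, SLC26A2, MAK, ARID5B, ZMIZ1, CAMKK2 and APPBP2 were lost, and 6, all higher, when just the 6 libraries compared were fitted. The share of all genes called was 17.9% at first, 12.1% without that library and 4.49% in the smaller fit.

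The 16 include ADAM7, which stood at 1.56, 2.07 and 1.42 CPM against 0, 0.379 and 0.658 CPM in DMSO, a difference without a test since the gene passed the filter through these olaparib cultures. ELL2 stood at 57.8, 55.7 and 60.9 CPM against 31.5, 37.0 and 37.9 CPM (0.69 ± 0.11, 3 cultures each, adjusted p 9.4e-06), and BMPR1B at 20.5, 17.6 and 26.4 against 12.4, 14.5 and 15.5 CPM (0.54 ± 0.13, adjusted p 0.0020). The groups of ELL2 and BMPR1B did not overlap, and without DMSO replicate 1 their changes were 0.63 and 0.48, both called. When only the libraries compared were fitted, the change of BMPR1B was 0.56 and not called (edgeR adjusted p 0.08). MAK stood at 4.34, 4.49 and 5.5 against 1.96, 3.33 and 2.5 CPM (0.74 ± 0.23, adjusted p 0.022), a call lost without that library (0.63, adjusted p 0.086). Several genes that enzalutamide lowered thus rose above the vehicle with olaparib: STK39 read 120, 112 and 128 CPM, MBOAT2 113, 111 and 120 CPM and RAB3B 86.8, 80.0 and 85.7 CPM, changes of 0.38 ± 0.08, 0.38 ± 0.07 and 0.39 ± 0.08. The olaparib effect at 72 h differed from that at 8 h in 8 members (7 up, ADAM7 among them, and PLPP1 down), against 9.71% of all genes. Without DMSO at 72 h replicate 1 the calls of PLPP1 (-0.35, adjusted p 0.078), RAB3B (0.35, adjusted p 0.06) and PDLIM5 (0.29, adjusted p 0.051) were lost.

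**Figure D4:**
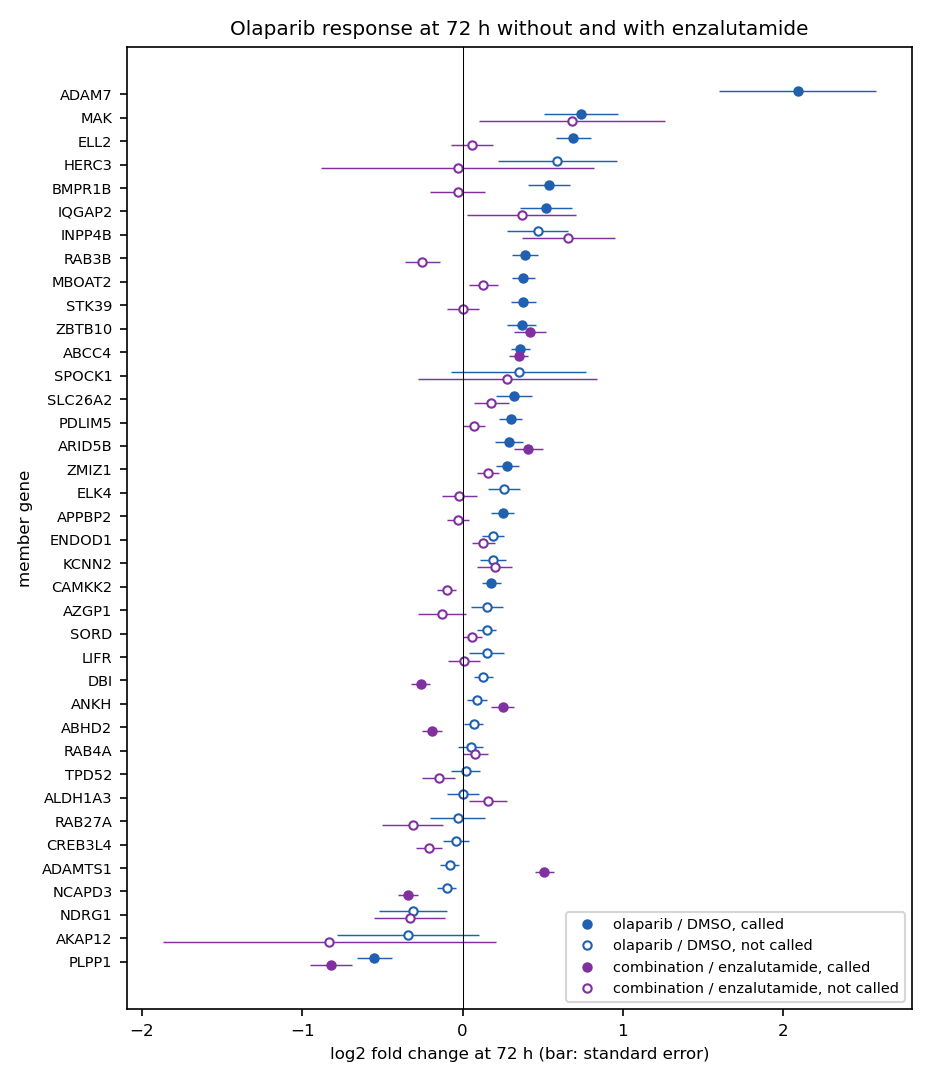
Log2 fold change at 72 h (x axis, bars are standard errors) of each member with olaparib against DMSO (blue) and with the combination against enzalutamide (purple); filled points have an edgeR adjusted p below 0.05, and ADAM7 has no purple point because both groups had no count. Of the blue points 16 are filled on the right and PLPP1 on the left, while 9 purple points are filled, 5 on the right and 4 on the left.

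PLPP1, a phospholipid phosphatase gene, was the member that both drugs lowered. At 72 h it stood at 73.5, 45.4 and 50.8 CPM in DMSO, 30.7, 26.7 and 26.3 CPM with enzalutamide, 35.2, 38.4 and 39 CPM with olaparib and 13.4, 17.1 and 15.8 CPM with the combination. The 4 groups did not overlap, and DMSO replicate 1 was far above its group. The changes against DMSO were -0.97 ± 0.11, -0.55 ± 0.11 and -1.80 ± 0.12 (3 cultures each, adjusted p 9.3e-09, 3.3e-04 and 1.1e-14). Without that library they were -0.78, -0.36 and -1.60, all called. When only the libraries compared were fitted, the olaparib change of PLPP1 was -0.56 and not called (edgeR adjusted p 0.076). The level of PLPP1 is uncertain, since it shares 24.9% of its exon bases with MTREX. The combination did not depart from the summed single-drug changes by the test (-0.27 ± 0.17, adjusted p 0.49).

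Adding olaparib to enzalutamide called no member at 8 or 24 h (4 and 11 at unadjusted p below 0.05, 0 and 1 by DESeq2), against 0.654% and 1.92% of all genes. At 24 h 4 members were called with no filter, 7 when just the 6 libraries compared were fitted and 3 without enzalutamide at 24 h replicate 2. At 72 h 5 members were higher and 4 lower than with enzalutamide alone, against 6.46% and 8.04%. ADAMTS1 stood at 282, 293 and 293 CPM with the combination and 208, 202 and 200 CPM with enzalutamide, while DMSO read 420, 333 and 333 CPM (0.51 ± 0.06 against enzalutamide, 3 cultures each, adjusted p 2.5e-08). ZBTB10 stood at 38.5, 35.4 and 32.4 against 24.7, 28.2 and 26.6 CPM (0.42 ± 0.10, adjusted p 0.0044) and ARID5B at 40.4, 40.4 and 36.7 against 30.8, 29.6 and 27.9 CPM (0.41 ± 0.09, adjusted p 9.1e-04). ABCC4 and ANKH were higher by 0.35 ± 0.06 and 0.25 ± 0.07. PLPP1 was lower, by -0.82 ± 0.13 (adjusted p 1.3e-05), NCAPD3 by -0.34 ± 0.06, DBI by -0.26 ± 0.06 and ABHD2 by -0.19 ± 0.06, the last called no more without any 1 of 5 libraries.

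Whether both drugs together gave the sum of their separate changes was asked by the departure contrast. No member departed at 8 or 24 h (2 and 4 at unadjusted p below 0.05, none by DESeq2), and none of the 15744 genes did. At 72 h 4 members departed, against 2.26% of all genes. Called or not, 30 of the 38 values at 72 h were below 0 and 8 above, ADAM7 included. Their median was -0.17, beside 0.009 over all genes tested, a description and not a test. ADAMTS1 departed upward by 0.59 ± 0.08 (adjusted p 2.1e-05), and without DMSO replicate 1 by 0.47. RAB3B departed by -0.64 ± 0.13 (adjusted p 0.0055): it stood at 60.2, 70.9 and 58.9 CPM in DMSO, 25.6, 25.7 and 25.8 CPM with enzalutamide, 86.8, 80.0 and 85.7 CPM with olaparib and 22.6, 22.5 and 19.8 CPM with the combination. ELL2 stood at 23.2, 16.5 and 19.1 CPM with the combination and 16.2, 22 and 17.4 CPM with enzalutamide and departed by -0.63 ± 0.17 (adjusted p 0.035; lost without any 1 of 8 libraries, 0.058 without DMSO replicate 1). DBI stood at 160, 153 and 169 against 195, 194 and 188 CPM and departed by -0.39 ± 0.09 (adjusted p 0.0088). In RAB3B and ELL2 the levels rose with olaparib and did not rise with olaparib beside enzalutamide. In a fit of only the 72 h libraries 2 members departed.

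Against DMSO, the combination lowered 23, 30 and 32 members at the 3 hours, against 3.86%, 12% and 22.6% of all genes, and raised 0, 1 and 3, against 2.13%, 9.63% and 20%. The 3 raised at 72 h were LIFR (0.79 ± 0.11), ARID5B (0.55 ± 0.09) and SLC26A2 (0.48 ± 0.12). The combination and single-drug comparisons share the DMSO libraries. NDRG1 was called lower with the combination at 24 h (-0.57 ± 0.21, adjusted p 0.045), but without DMSO at 24 h replicate 2, the culture at 204 CPM, the change was 0.04.

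Other genes of the pathway were listed with earlier results of these data known. Of 13 measured kallikreins and fast androgen targets, 11, 12 and 12 were lower with enzalutamide at 8, 24 and 72 h, with medians of -1.33, -2.23 and -3.24, against 1.94%, 10.6% and 14.6% of all genes called lower. With olaparib at 72 h 7 of the 13 were higher, against 8.22% of all genes. KLK3, which encodes prostate-specific antigen, changed by -0.88 ± 0.10, -2.98 ± 0.11 and -6.67 ± 0.14, and TMPRSS2 by -1.98, -2.23 and -2.56. CDKN1A, a gene induced by DNA damage, rose with olaparib by 1.20, 1.83 and 1.62. Of 8 measured androgen-repressed genes 1, 8 and 8 were higher with enzalutamide, with a median of 2.44 at 72 h, against 1.09%, 8.21% and 12.7% of all genes.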

How the data were processed

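RNA was sequenced from 36 cultures of LNCaP cells in 12 groups of 3, and the deposited table holds raw counts of fragments per gene. Per the file headers the authors made these counts with featureCounts 2.0.0 on Ensembl 99 annotation of GRCh38, from paired reads with both mates mapped and fragments of 20 to 5000 bases, without strand. The submitters' processing notes also name STAR and DESeq2; an aligner version is not given in the sources used here. Depth was 4.15 to 15.4 M counts per library. Groups came from the sample labels.

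From the counts, edgeR 4.0.16 in R 4.3.3 (limma 3.58.1) fitted 12 group means over all 36 libraries with TMM scaling and its default filter by group, which kept 15744 genes with 99.8% of counts, and its quasi-likelihood test with Benjamini-Hochberg adjustment over these genes gave the calls at 0.05. SEs were derived as |log2 fold change| divided by √F. The departure is the combination effect minus both single-drug effects. Alternatives were RLE scaling, no filter, DESeq2 1.42.0, only the libraries compared, replicate and lane blocks, leaving out each library, and, added after seeing the data, leaving out both libraries that stand apart. The fit was also run on counts simulated from its own estimates of spread, without lane effects or outlying libraries. That run cannot show that the fit suits these data. Replicates are separate cultures as far as the labels say, and p-values measure the spread between them. Intervals and floors cover counting error only.

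Members and pathway lists were chosen with earlier results of these data known. Values in every culture are given for the 4 members of each onset class with the largest change at 72 h, members called higher with enzalutamide, up to 4 called members by size with olaparib, with the combination against enzalutamide and in the departures, and members never called; other members named with values were chosen after these were seen. Promoter sequences are from RefSeq (GRCh38.p14). Results of some genes are not reported here.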

Additional observations from a re-analysis of the deposited data

Results flagged for a closer look

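The values in this section are log2 differences between 2 effects, each with an edgeR adjusted p below 0.05 over all genes. They were flagged because the effect of a drug differed between hours or in the presence of the other drug.

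At 72 h the combination departed from the sum of the single-drug effects by -0.64 in RAB3B, -0.39 in DBI, -0.63 in ELL2 and 0.59 in ADAMTS1. The ELL2 call was lost in 10 settings. From 8 to 24 h the enzalutamide effect moved further down by -0.93 in STK39, -0.77 in KCNN2, -0.64 in MBOAT2, -0.57 in RAB3B, -0.57 in SORD, -0.54 in CREB3L4, -0.46 in NCAPD3 and -0.38 in ANKH, and up by 0.56 in SLC26A2, a call lost in 11 settings.

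From 24 to 72 h it moved further down by -1.94 in MAK, -1.54 in IQGAP2, -1.14 in AZGP1, -0.66 in KCNN2, -0.59 in ALDH1A3, -0.47 in ADAMTS1, -0.37 in DBI, -0.31 in ANKH, -0.28 in SORD and -0.25 in ABCC4, and up by 0.40 in NCAPD3 and 0.35 in ZMIZ1. Calls lost in several settings were those of ABCC4 (11), SORD (10), ZMIZ1 (8) and ANKH (7), and without DMSO at 72 h replicate 1 SORD was at -0.22 (adjusted p 0.1) and ZMIZ1 at 0.25 (adjusted p 0.086). NCAPD3 moved in opposite directions in the earlier and the later interval.

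From 8 to 72 h the olaparib effect moved up by 3.59 in ADAM7, 0.75 in ELL2, 0.45 in STK39, 0.40 in MBOAT2, 0.38 in RAB3B, 0.34 in PDLIM5 and 0.29 in ABCC4, and down by -0.55 in PLPP1. Calls lost in several settings were those of RAB3B (11), PDLIM5 (7), PLPP1 (5) and ABCC4 (4), and without DMSO at 72 h replicate 1 RAB3B was at 0.35 (adjusted p 0.06), PDLIM5 at 0.29 (adjusted p 0.051) and PLPP1 at -0.35 (adjusted p 0.078). ADAM7 passed the low-count filter only through olaparib at 72 h, so its value is no test. It rests on 5 counts with olaparib at 8 h and 54 at 72 h, against 20 and 10 in DMSO.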

How the results depend on the processing

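Of 318 calls of members over all comparisons, 252 were kept in every setting that covered the gene and 66 were lost in some. DESeq2 covered 308 of the 318 calls and the fit of only the libraries compared 305, and calls not covered were not counted as lost. The sign of 1 called value turned: NDRG1 with the combination against DMSO at 24 h ranged from -0.86 to 0.04 with 1 library left out, the latter without DMSO at 24 h replicate 2. Counts of members called moved by over 1.5 times as follows. With only the libraries compared, they were 0, 1 and 6 for olaparib against DMSO at 8, 24 and 72 h, 1 and 7 for the combination against enzalutamide at 8 and 24 h, 2 for the departure at 72 h, 6 for the change of the enzalutamide effect from 24 to 72 h, 2 for that of the olaparib effect from 8 to 72 h and 2 for DMSO from 8 to 24 h. That setting redid the filter, the scaling and the spread on fewer samples, and the cause was not tested. With no filter they were 2 and 4 for the combination against enzalutamide at 8 and 24 h, 1 for the departure at 8 h, and 4 and 2 for DMSO from 8 to 24 h and from 24 to 72 h; the cause was not tested. DESeq2 called 1 member for the combination against enzalutamide at 24 h and 4 for DMSO from 24 to 72 h, and the lane block 2 and 1 for DMSO in these intervals. Leaving out 1 library each gave 0 to 1 for olaparib at 8 h, 0 to 3 for the combination against enzalutamide at 24 h (3 without enzalutamide at 24 h replicate 2), 11 to 19 for olaparib at 72 h (11 without DMSO at 72 h replicate 1), 7 to 13 for the enzalutamide effect from 24 to 72 h (7 without enzalutamide at 72 h replicate 3), 5 to 11 for the olaparib effect from 8 to 72 h (5 without DMSO at 8 h replicate 1 or 2 or olaparib at 72 h replicate 1), 0 to 2 for DMSO from 8 to 24 h, and 0 to 5 for DMSO from 24 to 72 h (5 without DMSO at 72 h replicate 2). For enzalutamide against DMSO it gave 16 to 21, 28 to 31 and 30 to 31 at the 3 hours. Replicate numbers did not pair the cultures (2 of 51 same-numbered pairs correlated over 0.1, and 16 of 36 libraries were closest to their own number). Of the 3 sequencing lanes in the labels, each holding 1 culture of every group, 25 of 36 libraries were closest to their own, and the lane block lost none of the 318 calls. With the replicate block 21 members were called with enzalutamide at 8 h against 22 without it. Low counts limit ADAM7, HERC3, SPOCK1 and AKAP12, at 0.513 to 1.27 CPM in DMSO on average. The HERC3 level is also uncertain because of the exon bases it shares with a second gene ID.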
